A study of Sus scrofa with 60 samples.

Results

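The genes described here make and recycle glutathione and thioredoxin or break down superoxide, peroxides and reactive electrophiles. They were chosen by gene symbol: a probe set, the group of short oligonucleotides that reads 1 transcript on the array, was included when its single annotated symbol was CAT, GSR, GSS, GCLC, GCLM, NQO1 or HMOX1, or began with PRDX, GPX, GST, MGST, TXN, GLRX or SOD and a digit. This rule gave 72 probe sets for 46 genes, out of 23999 probe sets and 6765 genes with a single symbol. The choice by symbol also brought in members without a defence role, such as the spliceosome protein TXNL4A. Of the 46 genes, 29 had 1 probe set and 17 had several, and the probe set with the highest mean over all arrays stood for its gene.

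Liver of 60 German Landrace pigs was profiled, with 1 array per animal. All were offspring of gilts that received the adequate protein (AP) diet during pregnancy, and the offspring of the high protein diet group were not analysed here. The stages were 94 days post conceptionem (94 dpc, fetuses, n = 15), and 1, 28 and 188 days post natum (1 dpn, n = 15; 28 dpn, n = 14; 188 dpn, n = 16). By the study's methods the fetuses were taken by Caesarean section in a separate experiment, and food was withheld overnight from the 2 oldest groups. The last weeks of gestation lie between the first 2 stages, so late gestation, birth and experiment cannot be told apart in the first comparison. In the second, age cannot be told apart from fasting, the way of killing, fostering or castration. By the methods newborns were killed by injection, and pigs of 28 and 188 dpn by electronarcosis and bleeding. Piglets kept past the newborn stage were fostered to other sows, and males were castrated. In the third comparison, age and the change of feed after weaning cannot be told apart. Sib pairs were sampled within stages, and the piglets of a litter were spread over the 3 postnatal stages. By the paper, light and heavy sibs were taken at 94 dpc and 1 dpn, and animals of middling growth at 28 and 188 dpn. The spread between animals of different stages therefore cannot be told apart from this sampling. Litter, sex and body weight are missing from the labels, so animals were modelled as independent. The standard errors and p-values do not allow for sibs within a stage or across stages, and hold only as far as the animals are independent. They set the difference between stages against the spread between these animals.

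The array values were checked as liver, with the periods between adjacent stages numbered I to III. The 11 measured hepatocyte markers, among them albumin and apolipoproteins, averaged between 14.96 and 16.01 in every animal on the log2 scale, and none was at background at any stage. Of these, 2 rose and 2 fell in period I, 10 fell in period II and 9 rose in period III, and their part in the changes of the defence genes was not tested. Genes of red cell precursors, which the fetal liver houses, moved strongly in period I, where 8 of 8 measured erythroid markers fell. Their list means per animal were 7.23 to 8.96 at 1 dpn, against 9.73 to 11.51 at 94 dpc. Other blood lineages fell with them in period I, with 6 of 6 neutrophil markers called lower (median change -1.12) and 4 of 4 megakaryocyte markers (median -1.08), and 5 of 5 tested neutrophil markers fell again in period II (median -0.83). Endothelial markers fell in 3 of 5 and stellate and fibroblast markers in 3 of 6 in period I, with none rising. The part of these cell types in the changes of the defence genes was not tested.

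The 3' over 5' signal ratio of the actin control probe sets, in log2, a gauge of how far the labelled RNA reaches toward its 5' end, was 2.29 ± 0.34 in fetuses, 1.76 ± 0.31 in newborns, 3.54 ± 0.46 in pigs of 28 dpn and 4.01 ± 0.45 in those of 188 dpn (SD). The same ratio of the GAPDH controls took another course, at 0.99 ± 0.13 in fetuses, 0.38 ± 0.14 in newborns, 0.77 ± 0.089 in pigs of 28 dpn and 0.68 ± 0.098 in those of 188 dpn. In bulk tissue, fewer cells of a type and less RNA per cell cannot be told apart.

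Glutathione is a small thiol peptide that glutathione peroxidases use to reduce peroxides and that glutathione transferases attach to electrophiles, after which glutathione reductase restores it at the cost of NADPH. The thioredoxin system runs beside it: thioredoxin reductase keeps thioredoxin reduced, and thioredoxin in turn serves the peroxiredoxins, which are abundant peroxide scavengers. Superoxide dismutases turn superoxide into hydrogen peroxide and catalase splits that peroxide in peroxisomes. The liver is among the organs richest in these enzymes and exports glutathione to the blood.

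Levels are given as log2(intensity + 16), for single animals as the lowest to the highest value with the median, or as the stage mean ± SD, the standard deviation over the animals of a stage. Changes are later minus earlier stage on this log2 scale with their standard error (SE), followed by the fold change on the same scale and the adjusted p of limma, which was adjusted over all probe sets tested. A gene was called when its adjusted p lay below 0.05. Consecutive periods share the animals of the stage between them, so their changes are not independent. Levels of different genes come from different oligonucleotides and are not set against each other.

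Of the 46 genes, 43 passed the filter on low values in each period, and 39 of them passed it at every stage taken alone. GPX5, GPX6 and SOD3 did not pass at any stage and were not tested. GPX5 and GPX6 are glutathione peroxidases known from the epididymis and the olfactory epithelium, and their stage means lay between 5.19 and 6.28, at or near the level of the Tag control probe sets (5.73 to 6.29), which served as background. SOD3, the extracellular superoxide dismutase, had means of 5.82 ± 0.33 in fetuses, 6.80 ± 0.88 in newborns, 6.18 ± 0.50 in pigs of 28 dpn and 6.35 ± 0.54 in those of 188 dpn, at background at 94 dpc and near it at 28 dpn.

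Between 94 dpc and 1 dpn (period I) most defence genes were higher in the newborn. Of the 43 tested, 26 rose (60.5%), 7 fell (16.3%) and 10 were not called, beside 29.8% of all tested genes that rose and 35.6% that fell. With the GAPDH ratio as a covariate, an alternative chosen after the data were seen, 8 rose and 6 fell. That ratio was 0.16 to 0.66 at 1 dpn and 0.81 to 1.30 at 94 dpc, so that the stages and the covariate cannot be told apart. The newborn and fetal values of 7 defence genes did not overlap, all higher at 1 dpn (16.3% of the members, against 12.8% of all tested genes). At least 2-fold rises were seen for 9 and falls of that size for 3, and the median change was 0.35 for the members and -0.058 for all genes. The 4 changes of greatest size were those of GSTA1, GLRX, NQO1 and GPX3, all upward.

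Between 1 and 28 dpn (period II) rises again outnumbered falls. The test called 21 of 43 genes higher (48.8%), 8 lower (18.6%) and left 14 uncalled, beside 32.2% of all genes that rose and 35.7% that fell. In 9 genes the stages did not overlap, 7 higher and 2 lower at 28 dpn (20.9% of the members, 11.6% of all genes). GPX7, GLRX5, PRDX6 and MGST3 changed most, GPX7 downward. The median change was 0.20 in the members and -0.035 over all genes. These counts depended on the processing: 29 rose and 3 fell when each array was centred on its median. With the mean over all probe sets of a gene, also untested ones, 16 rose and 12 fell. With the actin ratio as a covariate 9 rose and 6 fell, and with the GAPDH ratio 20 rose and 5 fell.

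Between 28 and 188 dpn (period III) the changes were smaller and more evenly split. Of 43 genes 15 rose (34.9%), 12 fell (27.9%) and 16 were not called, where 17.5% of all genes rose and 28.3% fell. No defence gene had stages that did not overlap, a pattern seen in 1.62% of all genes. GPX3 and PRDX6 rose and GPX7 and GSTA4 fell by more than 2-fold, and the median change was 0.029 for the members and -0.061 for all genes. After quantile normalization 9 rose and 13 fell, so the direction in which most called genes moved in this period changed with the scaling.

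Over all 4 stages limma's F test called 41 of 43 members, close to the 94.6% of all tested genes that it called. GLRX3 and GSTM3 were the 2 members that were not called. The highest of the 4 stage means was at 188 dpn for 17 of the 41 (41.5%, against 24.1% of the 5192 genes called), at 28 dpn for 9, at 1 dpn for 9 and at 94 dpc for 6 (14.6%, against 38.0%). The lowest mean was the fetal one in 24 of the 41 (58.5%, against 28.9%). A highest or lowest mean need not differ from the next. Among the 17, SOD1, NQO1 and PRDX3 had no called change between 28 and 188 dpn. These counts of stages were not repeated under other scalings. The stage means spanned at least 2-fold in 26 genes and at least 4-fold in 8, among them GSTA1 (18.6-fold) and GPX3 (15.7-fold), with fetuses lowest and pigs of 188 dpn highest. GPX7 ran the opposite way, and since its mean at 188 dpn was near background, its span of 13.9-fold is a lower limit and its place beside these was not settled.

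**Figure D1:**
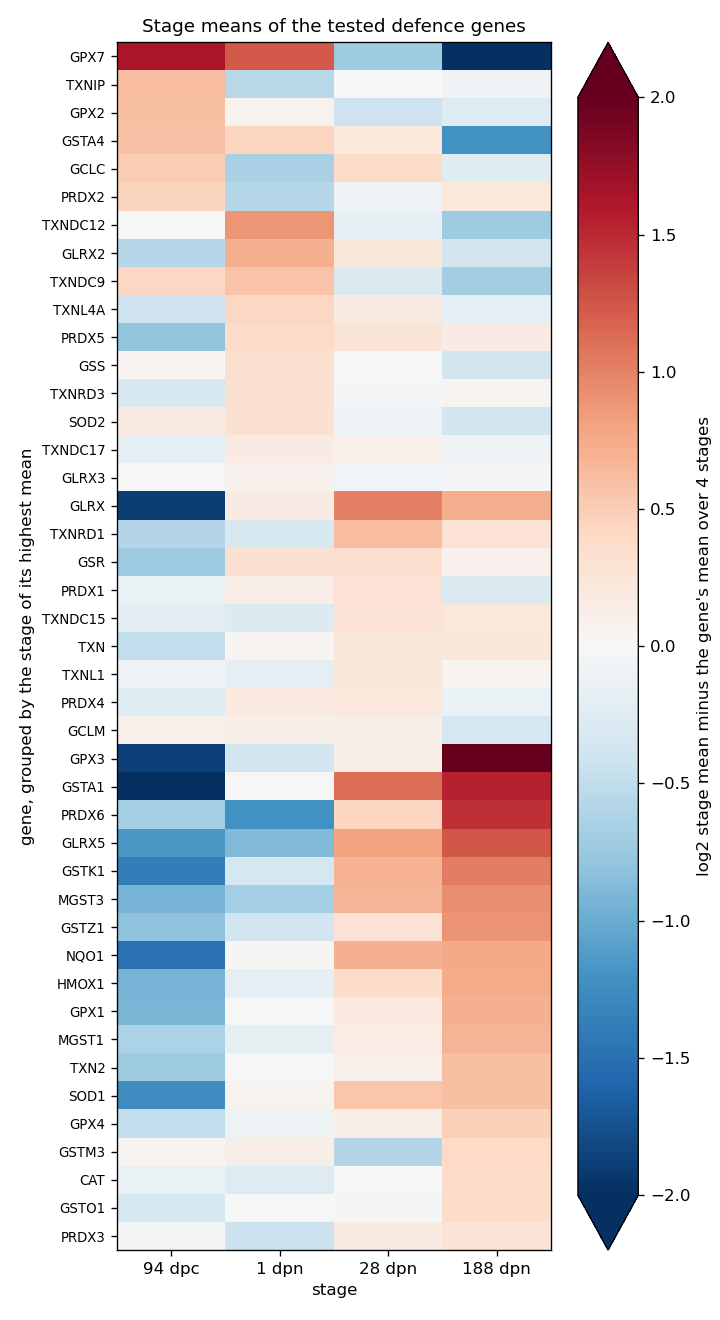
Stage means of the 43 tested defence genes (rows) at the 4 stages (columns), coloured by the log2 difference from the gene's own mean over the stages, with red for higher and blue for lower. The block at the foot holds the 17 called genes with their highest mean at 188 dpn, from GPX3 to PRDX3, together with the uncalled GSTM3, and the block at the top the 6 with their highest mean at 94 dpc.

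Superoxide dismutases and catalase differed in how they moved. SOD1, the copper and zinc enzyme of the cytosol, had values of 12.88 to 13.38 (median 13.07) at 94 dpc, 14.07 to 14.69 (median 14.40) at 1 dpn, 14.73 to 15.04 (median 14.89) at 28 dpn and 14.73 to 15.19 (median 14.93) at 188 dpn. Neither fetuses and newborns nor newborns and pigs of 28 dpn overlapped, whereas the 2 oldest stages shared nearly the same range. The changes were 1.30 ± 0.065 (2.46-fold, adjusted p = 2.14e-17) in period I, 0.50 ± 0.062 (1.41-fold, adjusted p = 3.38e-08) in period II and 0.044 ± 0.057 (1.03-fold, adjusted p = 0.568) in period III, where quantile normalization gave -0.29 in its place.

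SOD2, the manganese enzyme of mitochondria, took another course, with values of 10.79 to 11.60 (median 11.29) at 94 dpc, 10.35 to 12.01 (median 11.43) at 1 dpn, 10.39 to 11.45 (median 10.99) at 28 dpn and 10.10 to 11.24 (median 10.67) at 188 dpn. Its stages overlapped throughout, and the fall of period II was the one called, at -0.41 ± 0.14 (1.33-fold, adjusted p = 0.00947). That call was lost with median centring (-0.094, adjusted p = 0.551) and with either control ratio as a covariate. Periods I and III gave 0.12 ± 0.12 (adjusted p = 0.399) and -0.26 ± 0.12 (adjusted p = 0.0723).

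CAT, the catalase of peroxisomes, lay at 14.61 to 15.16 (median 14.74) at 94 dpc, 14.34 to 15.06 (median 14.67) at 1 dpn, 14.78 to 15.27 (median 14.89) at 28 dpn and 14.86 to 15.62 (median 15.29) at 188 dpn, and adjacent stages overlapped. The change in period I was -0.12 ± 0.071 (adjusted p = 0.131) and was not called. It then rose by 0.26 ± 0.072 (1.2-fold, adjusted p = 0.00201) in period II and by 0.36 ± 0.075 (1.29-fold, adjusted p = 0.000256) in period III. Neither rise was called in every alternative: that of period II turned to -0.18 when the actin ratio was a covariate, and that of period III was lost under quantile normalization. CAT is also an abundant enzyme of red cells, whose markers fell in period I, and their part in its values was not tested.

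**Figure D2:**
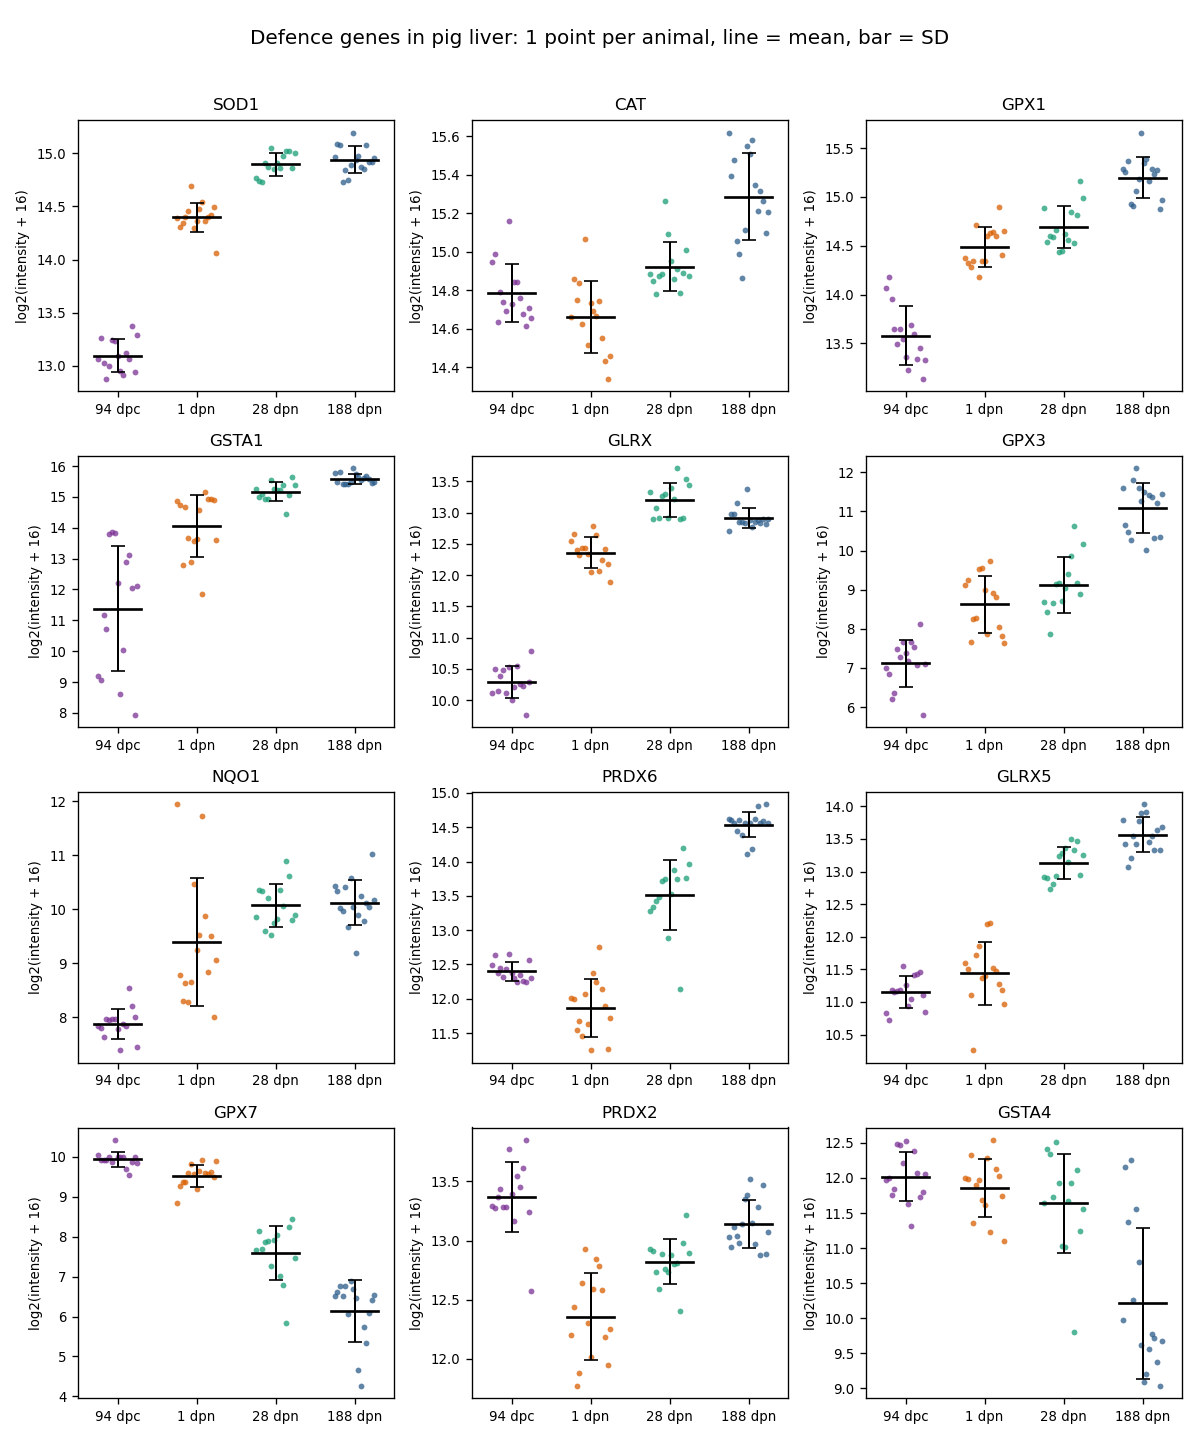
Levels of 12 defence genes as log2(intensity + 16) on the y axes, with 1 point per animal at 94 dpc, 1, 28 and 188 dpn, the mean as a line and the SD as a bar. SOD1 separates the fetuses from all born animals, GSTA1 shows fetuses spread from 7.94 to 13.86, NQO1 has 2 newborns above 11.7, and GSTA4 has 4 of 16 animals at 188 dpn apart from the rest.

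Glutathione synthesis did not move as a unit. GCLC, the catalytic subunit of glutamate-cysteine ligase and the rate-limiting step, had values of 11.02 to 11.83 (median 11.39) at 94 dpc, 8.92 to 11.06 (median 10.55) at 1 dpn, 10.66 to 11.96 (median 11.42) at 28 dpn and 9.95 to 11.26 (median 10.72) at 188 dpn. On this brightest probe set newborns were thus lowest and fetuses and pigs of 28 dpn alike in range. It fell by 1.15 ± 0.16 (2.22-fold, adjusted p = 1.87e-07) in period I, rose by 1.03 ± 0.18 (2.04-fold, adjusted p = 1.09e-05) in period II and fell by 0.63 ± 0.14 (1.54-fold, adjusted p = 0.000494) in period III. Other GCLC probe sets went against 2 of these calls: a dim one, near background in the fetus, rose by 1.11 ± 0.33 (2.16-fold, adjusted p = 0.00419) in period I, and another fell by 0.86 ± 0.20 (1.82-fold, adjusted p = 0.000314) in period II. In period III 3 of the 4 GCLC probe sets tested fell and the other was not called. The probe sets with means of 8.83 and 8.02 at 188 dpn were lowest at that stage. By the mean over all GCLC probe sets no change was called in period I (-0.30, adjusted p = 0.117) or period II (0.0085, adjusted p = 0.969). The order of the stages is thus not settled for the gene.

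GCLM, the modifier subunit of that ligase, had no called change over the first 3 stages, with values of 7.57 to 8.65 (median 7.96) at 94 dpc, 7.43 to 8.70 (median 8.08) at 1 dpn, 7.27 to 8.86 (median 7.98) at 28 dpn and 6.63 to 8.25 (median 7.67) at 188 dpn. A fall of -0.46 ± 0.18 (1.37-fold, adjusted p = 0.0481) in period III was just past the threshold and was lost in several alternatives. GSS, glutathione synthetase, which adds glycine in the final step, had values of 9.46 to 10.11 (median 9.84) at 94 dpc, 9.48 to 10.47 (median 10.20) at 1 dpn, 9.46 to 10.12 (median 9.77) at 28 dpn and 8.98 to 9.92 (median 9.44) at 188 dpn, and overlapped between all adjacent stages. It rose by 0.29 ± 0.10 (1.22-fold, adjusted p = 0.00963) in period I, then fell by 0.32 ± 0.10 (1.25-fold, adjusted p = 0.00634) in period II and fell by 0.36 ± 0.092 (1.29-fold, adjusted p = 0.00214) in period III. A dimmer GSS probe set moved further, by 0.94 ± 0.092 in period I and -1.35 ± 0.10 in period II.

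GSR, the reductase that restores glutathione, had values of 9.09 to 9.79 (median 9.38) at 94 dpc, 9.95 to 11.04 (median 10.46) at 1 dpn, 9.92 to 10.85 (median 10.52) at 28 dpn and 8.52 to 10.89 (median 10.31) at 188 dpn. No fetus reached the lowest newborn. Its rise in period I was 1.02 ± 0.10 (2.03-fold, adjusted p = 2.76e-10), and no later change was called, at 0.039 ± 0.11 (adjusted p = 0.775) and -0.26 ± 0.16 (adjusted p = 0.186). Its second tested probe set gave 0.11 ± 0.13 (adjusted p = 0.441) in period I, where it was not called, and fell by 0.65 ± 0.15 (1.57-fold, adjusted p = 0.000322) in period II. Of these 4 genes, 2 rose and 1 fell in period I, 1 rose and 1 fell in period II, and 3 fell in period III.

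Glutathione peroxidases parted into genes that climbed with age and genes that faded. GPX1, the ubiquitous peroxidase of cytosol and mitochondria, had values of 13.14 to 14.18 (median 13.54) at 94 dpc, 14.18 to 14.90 (median 14.40) at 1 dpn, 14.43 to 15.17 (median 14.61) at 28 dpn and 14.87 to 15.66 (median 15.24) at 188 dpn. Fetuses and newborns did not overlap, although the highest fetus and the lowest newborn both round to 14.18, and the rises were 0.91 ± 0.10 (1.88-fold, adjusted p = 1.05e-09), 0.20 ± 0.085 (1.15-fold, adjusted p = 0.0347) and 0.51 ± 0.083 (1.42-fold, adjusted p = 1.27e-05) in periods I to III. The rise of period II was lost when the array least like the others of its stage was left out in each stage.

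GPX4, which reduces lipid hydroperoxides inside membranes, rose in smaller steps with values of 12.50 to 12.78 (median 12.62) at 94 dpc, 12.66 to 13.38 (median 13.02) at 1 dpn, 13.02 to 13.55 (median 13.26) at 28 dpn and 13.29 to 14.02 (median 13.54) at 188 dpn. Its changes were 0.39 ± 0.07 (1.31-fold, adjusted p = 1.3e-05), 0.23 ± 0.079 (1.17-fold, adjusted p = 0.0116) and 0.35 ± 0.073 (1.27-fold, adjusted p = 0.000303). Its SD of 0.077 between fetuses was the smallest of any tested defence gene at any stage. A dimmer GPX4 probe set gave no call in periods I and II and fell by 0.29 ± 0.12 (1.22-fold, adjusted p = 0.0484) in period III, against the brightest.

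GPX3, the secreted peroxidase of plasma, which in adults comes largely from the kidney, was the member with the steepest late rise. Values were 5.81 to 8.12 (median 7.19) at 94 dpc, 7.64 to 9.74 (median 8.81) at 1 dpn, 7.87 to 10.63 (median 9.09) at 28 dpn and 10.03 to 12.10 (median 11.32) at 188 dpn. The ranges of neighbouring stages met, while every pig of 188 dpn exceeded every newborn and every fetus. The changes were 1.51 ± 0.23 (2.85-fold, adjusted p = 1.12e-06) in period I, 0.50 ± 0.25 (1.41-fold, adjusted p = 0.0814) in period II, which was not called, and 1.96 ± 0.23 (3.88-fold, adjusted p = 7.79e-08) in period III.

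GPX7, a peroxidase of the endoplasmic reticulum that helps oxidise folding proteins, went the other way, with values of 9.54 to 10.43 (median 9.93) at 94 dpc, 8.85 to 9.92 (median 9.57) at 1 dpn, 5.85 to 8.44 (median 7.77) at 28 dpn and 4.26 to 6.88 (median 6.48) at 188 dpn. No pig of 28 dpn reached the lowest newborn. At 188 dpn its mean of 6.14 ± 0.78 was near background, so the fall of period III is a lower limit. The changes were -0.42 ± 0.092 (1.34-fold, adjusted p = 0.000185), -1.93 ± 0.18 (3.8-fold, adjusted p = 1.44e-10) and -1.45 ± 0.25 (2.73-fold, adjusted p = 2.95e-05), and its other tested probe set also fell in each period. GPX2, known from the epithelium of the gut, was dim throughout, with means of 7.93 ± 0.41 in fetuses, 7.39 ± 0.39 in newborns, 6.91 ± 0.54 in pigs of 28 dpn and 7.08 ± 0.71 in those of 188 dpn. It fell by 0.53 ± 0.14 in period I, fell by 0.48 ± 0.17 in period II and was not called in period III. The fall of period II was lost under both scaling alternatives, with -0.16 after quantile normalization and -0.17 after median centring, and that of period I turned to 0.25 with the GAPDH covariate.

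GSTA1, an alpha class transferase that in adult liver is among the most abundant detoxifying enzymes, changed more in period I than any other member and varied more between fetuses than any other member. Values were 7.94 to 13.86 (median 12.06) at 94 dpc, 11.85 to 15.17 (median 14.59) at 1 dpn, 14.46 to 15.65 (median 15.22) at 28 dpn and 15.41 to 15.93 (median 15.55) at 188 dpn. The lowest fetus and the highest lay 5.91 apart on the log2 scale, whereas the pigs of 188 dpn lay within 0.52 of each other. At 188 dpn the GSTA1 intensities ranged from 43443 to 62239. Whether so bright a signal narrowed the spread or the later rises was not tested. GSTA1 rose by 2.68 ± 0.54 (6.42-fold, adjusted p = 6.84e-05) in period I, by 1.11 ± 0.26 (2.16-fold, adjusted p = 0.000425) in period II and by 0.42 ± 0.089 (1.34-fold, adjusted p = 0.000332) in period III. The call of period III was lost in 1 fit over all stages (adjusted p = 0.435) and under quantile normalization (0.17, adjusted p = 0.108). It was also lost by the mean over all GSTA1 probe sets (0.015, adjusted p = 0.973), which took in an untested one.

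The SD of GSTA1 was 2.02 among fetuses, 1.00 among newborns, 0.30 among pigs of 28 dpn and 0.16 among those of 188 dpn. Fetuses and newborns were sampled as light and heavy sibs and the older pigs were not, so stage and sampling cannot be told apart here. Among the 5491 genes tested over the stages, 1 had a larger SD between fetuses, whereas 96.2% had a larger SD at 188 dpn. A second bright GSTA1 probe set, which by the maker's suffix may read several transcripts, had fetal values of 7.60 to 12.63 (median 10.99). The 5 lowest fetuses were the same animals on both probe sets, and 4 of the 5 highest were. Alpha class transferases are similar in sequence, so signal from a related gene cannot be told apart from GSTA1 in these values.

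**Figure D3:**
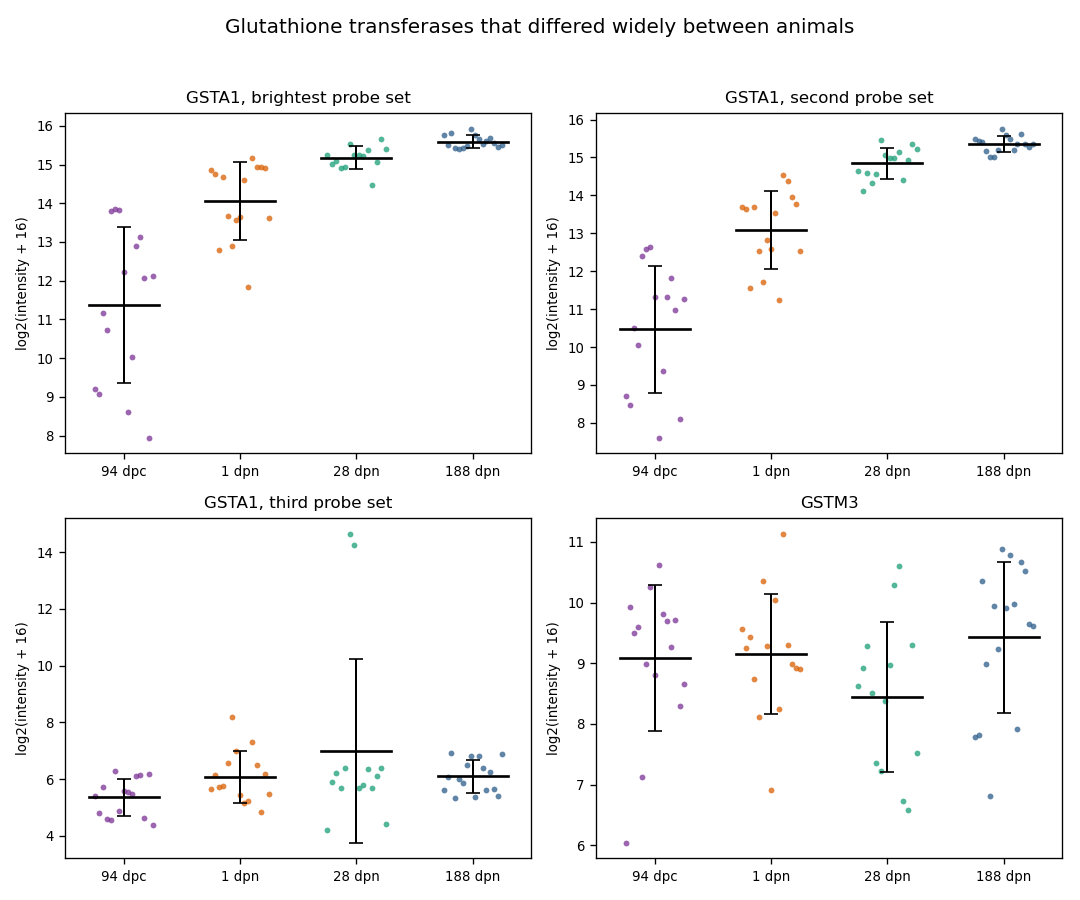
GSTA1 on its 3 probe sets and GSTM3 as log2(intensity + 16) on the y axes, with 1 point per animal at each stage, the mean as a line and the SD as a bar. Both bright GSTA1 probe sets show the fetuses widely spread and the pigs of 188 dpn close together, the third reads 2 animals of 28 dpn above 14 and the other 58 below 8.2, and GSTM3 is spread at every stage.

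GSTA4, an alpha class enzyme that clears the lipid peroxidation product hydroxynonenal, had no called change over the first 3 stages and fell late. Values were 11.31 to 12.52 (median 12.01) at 94 dpc, 11.10 to 12.54 (median 11.96) at 1 dpn, 9.80 to 12.51 (median 11.70) at 28 dpn and 9.03 to 12.26 (median 9.75) at 188 dpn. At 188 dpn the animals were not evenly spread: 4 lay between 11.37 and 12.26, inside the range of 28 dpn, and the other 12 reached 10.80 at most. The change in period III was -1.42 ± 0.32 (2.68-fold, adjusted p = 0.000574), and periods I and II gave -0.16 ± 0.14 (adjusted p = 0.314) and -0.22 ± 0.20 (adjusted p = 0.34). The SD at 188 dpn was 1.08, which 0.565% of genes exceeded.

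GSTO1, an omega class enzyme that reduces dehydroascorbate, had values of 14.20 to 14.93 (median 14.46) at 94 dpc, 14.59 to 15.25 (median 14.86) at 1 dpn, 14.65 to 15.06 (median 14.86) at 28 dpn and 14.95 to 15.69 (median 15.24) at 188 dpn. It rose by 0.35 ± 0.081 (1.27-fold, adjusted p = 0.000364) in period I and by 0.39 ± 0.07 (1.31-fold, adjusted p = 4.41e-05) in period III, with the stages overlapping. In period II the change was -0.025 ± 0.071 (adjusted p = 0.771), and 0.29 after median centring.

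GSTZ1, which also serves tyrosine breakdown as maleylacetoacetate isomerase, rose at each step on its brightest probe set, with values of 11.67 to 12.51 (median 11.94) at 94 dpc, 11.97 to 12.95 (median 12.48) at 1 dpn, 12.64 to 13.48 (median 13.14) at 28 dpn and 13.45 to 14.12 (median 13.69) at 188 dpn. The changes were 0.41 ± 0.10 (1.33-fold, adjusted p = 0.000583), 0.67 ± 0.10 (1.59-fold, adjusted p = 7.2e-07) and 0.61 ± 0.078 (1.53-fold, adjusted p = 2.55e-07). Its other tested probe set gave 0.095 ± 0.11 (adjusted p = 0.481) in period I, which was not called, and rose in periods II and III. No animal of 28 or 188 dpn was as low as the median newborn. GSTK1, the kappa class enzyme of mitochondria and peroxisomes, averaged 11.23 ± 0.38 in fetuses, 12.27 ± 0.35 in newborns, 13.32 ± 0.32 in pigs of 28 dpn and 13.64 ± 0.23 in those of 188 dpn, and newborns and pigs of 28 dpn did not overlap. Its changes were 1.03 ± 0.13, 1.05 ± 0.12 and 0.33 ± 0.10.

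The membrane-bound microsomal transferases followed the same order of stages. MGST3 had values of 12.00 to 12.73 (median 12.37) at 94 dpc, 12.37 to 12.98 (median 12.62) at 1 dpn, 13.34 to 14.52 (median 14.08) at 28 dpn and 13.81 to 14.79 (median 14.25) at 188 dpn, and no newborn reached the lowest pig of 28 dpn. It rose by 0.26 ± 0.082 (1.2-fold, adjusted p = 0.00666), 1.35 ± 0.093 (2.55-fold, adjusted p = 1.25e-13) and 0.25 ± 0.095 (1.19-fold, adjusted p = 0.0351) in periods I to III. MGST1, which protects membranes of the endoplasmic reticulum and mitochondria, averaged 13.57 ± 0.17 in fetuses, 14.00 ± 0.25 in newborns, 14.34 ± 0.22 in pigs of 28 dpn and 14.88 ± 0.19 in those of 188 dpn, with changes of 0.44 ± 0.084, 0.34 ± 0.094 and 0.54 ± 0.08.

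GSTM3, a mu class enzyme, had no called change. It ranged from 6.04 to 10.63 at 94 dpc, from 6.91 to 11.14 at 1 dpn, from 6.59 to 10.60 at 28 dpn and from 6.81 to 10.88 at 188 dpn. The SDs of 0.99 to 1.24 were exceeded by 0.2% to 1.77% of genes, depending on the stage. Its intervals were wide: the change of period II was -0.70 (95% interval -1.49 to 0.093, adjusted p = 0.111) and that of period III 0.98 (95% interval 0.12 to 1.84, adjusted p = 0.0651). Of the 8 transferases, 6 rose and none fell in period I, 5 rose and none fell in period II, and 6 rose and 1 fell in period III.

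Glutaredoxins reduce disulfides formed with glutathione and carry iron-sulfur clusters. GLRX, the cytosolic form, had values of 9.77 to 10.79 (median 10.26) at 94 dpc, 11.89 to 12.78 (median 12.40) at 1 dpn, 12.90 to 13.71 (median 13.24) at 28 dpn and 12.71 to 13.38 (median 12.87) at 188 dpn. Fetuses, newborns and pigs of 28 dpn formed 3 ranges without overlap. It rose by 2.07 ± 0.10 (4.18-fold, adjusted p = 3.26e-18) and 0.84 ± 0.10 (1.79-fold, adjusted p = 1.2e-08) in periods I and II and fell by 0.29 ± 0.084 (1.22-fold, adjusted p = 0.00649) in period III. Its second probe set rose by 1.63 ± 0.089 and 0.78 ± 0.10 as well, but was not called in period III, at -0.071 ± 0.11 (adjusted p = 0.647).

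GLRX5, the mitochondrial form needed to build iron-sulfur clusters, had its called rises after the newborn stage. Values were 10.73 to 11.55 (median 11.16) at 94 dpc, 10.26 to 12.21 (median 11.48) at 1 dpn, 12.74 to 13.49 (median 13.19) at 28 dpn and 13.07 to 14.03 (median 13.55) at 188 dpn, so that every pig of 28 dpn exceeded every newborn. Its changes were 0.29 ± 0.14 (1.22-fold, adjusted p = 0.0625) in period I, which was not called, 1.69 ± 0.14 (3.22-fold, adjusted p = 1.03e-11) in period II and 0.44 ± 0.10 (1.35-fold, adjusted p = 0.00059) in period III. GLRX2, another mitochondrial form, peaked in newborns with means of 9.72 ± 0.19 in fetuses, 10.99 ± 0.39 in newborns, 10.51 ± 0.20 in pigs of 28 dpn and 9.92 ± 0.26 in those of 188 dpn. It rose by 1.28 ± 0.11 without overlap and then fell by 0.49 ± 0.12 in period II and fell by 0.59 ± 0.09 in period III. GLRX3, an iron-handling form of the cytosol, stayed within 0.14 between its stage means of 12.08 ± 0.13 in fetuses, 12.16 ± 0.28 in newborns, 12.01 ± 0.21 in pigs of 28 dpn and 12.04 ± 0.10 in those of 188 dpn, and its period I change was 0.074 (95% interval -0.10 to 0.25, adjusted p = 0.459).

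The peroxiredoxins did not move as a group. PRDX6, which uses a single reactive cysteine and also repairs membrane phospholipids, had values of 12.24 to 12.66 (median 12.38) at 94 dpc, 11.25 to 12.75 (median 11.89) at 1 dpn, 12.14 to 14.20 (median 13.62) at 28 dpn and 14.11 to 14.84 (median 14.57) at 188 dpn. Newborns were lowest and the oldest pigs highest. It fell by 0.53 ± 0.11 (1.45-fold, adjusted p = 0.000137) in period I and rose by 1.64 ± 0.17 (3.12-fold, adjusted p = 5.65e-10) in period II and 1.03 ± 0.13 (2.04-fold, adjusted p = 3.15e-07) in period III. At 28 dpn 1 animal at 12.14 lay within the newborn range.

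PRDX2, a cytosolic form that is among the most abundant proteins of red cells, had values of 12.57 to 13.85 (median 13.37) at 94 dpc, 11.77 to 12.93 (median 12.30) at 1 dpn, 12.40 to 13.21 (median 12.84) at 28 dpn and 12.88 to 13.52 (median 13.09) at 188 dpn. Its lowest fetus lay inside the newborn range and the others above it. PRDX2 fell by 1.01 ± 0.12 (2.02-fold, adjusted p = 1.01e-08) in period I and rose by 0.46 ± 0.11 (1.38-fold, adjusted p = 0.000487) and 0.32 ± 0.078 (1.25-fold, adjusted p = 0.00167) afterwards. The erythroid markers had a median change of -2.62 in the same period with 8 of 8 called lower, but in period II 2 rose and 1 fell of 5 tested, and in period III none of 5 was called. Their part in the PRDX2 changes was not tested.

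PRDX3, the peroxiredoxin of mitochondria, had values of 13.55 to 13.93 (median 13.75) at 94 dpc, 12.91 to 13.67 (median 13.35) at 1 dpn, 13.70 to 14.17 (median 13.98) at 28 dpn and 13.46 to 14.44 (median 14.07) at 188 dpn. It fell by 0.39 ± 0.072 (1.31-fold, adjusted p = 1.96e-05), rose by 0.62 ± 0.075 (1.53-fold, adjusted p = 2.08e-08) with no overlap between newborns and pigs of 28 dpn, and gave 0.094 ± 0.078 (adjusted p = 0.356) in period III. PRDX5, found in mitochondria and peroxisomes, averaged 12.39 ± 0.16 in fetuses, 13.56 ± 0.29 in newborns, 13.44 ± 0.29 in pigs of 28 dpn and 13.34 ± 0.29 in those of 188 dpn. Its period I rise was 1.17 ± 0.09 with no overlap, and neither later change was called.

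PRDX1, the main cytosolic form, and PRDX4, the form of the endoplasmic reticulum, both fell late. PRDX1 had values of 12.78 to 13.26 (median 13.03) at 94 dpc, 12.59 to 13.90 (median 13.33) at 1 dpn, 13.26 to 13.69 (median 13.48) at 28 dpn and 12.45 to 13.38 (median 12.91) at 188 dpn. It rose by 0.26 ± 0.094 (1.2-fold, adjusted p = 0.0149) in period I, which turned to -0.042 with the GAPDH covariate, gave 0.14 ± 0.10 (adjusted p = 0.196) in period II and fell by 0.58 ± 0.088 (1.49-fold, adjusted p = 3.95e-06) in period III. PRDX4 had values of 13.63 to 14.21 (median 13.96) at 94 dpc, 13.98 to 14.60 (median 14.34) at 1 dpn, 14.11 to 14.58 (median 14.42) at 28 dpn and 13.70 to 14.30 (median 14.02) at 188 dpn, rose by 0.45 ± 0.074 (1.37-fold, adjusted p = 2.9e-06), gave 0.028 ± 0.074 (adjusted p = 0.754) and fell by 0.35 ± 0.07 (1.28-fold, adjusted p = 0.000151). A much dimmer PRDX4 probe set fell by 0.66 ± 0.19 in period II. Over the 6 peroxiredoxins, 3 rose and 3 fell in period I, 3 rose in period II, and 2 rose and 2 fell in period III.

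Among the thioredoxins, TXN of the cytosol had values of 12.34 to 13.01 (median 12.74) at 94 dpc, 12.93 to 13.58 (median 13.29) at 1 dpn, 13.33 to 13.68 (median 13.45) at 28 dpn and 13.17 to 13.80 (median 13.45) at 188 dpn. It rose by 0.54 ± 0.074 (1.45-fold, adjusted p = 1.66e-07) and by 0.19 ± 0.071 (1.14-fold, adjusted p = 0.0182), and gave -0.0037 ± 0.071 (adjusted p = 0.973) in period III. The small rise of period II did not hold: a second TXN probe set fell by 0.86 ± 0.12 (1.81-fold, adjusted p = 4.06e-07), the mean over its probe sets gave -0.33 and quantile normalization gave -0.032. TXN2 of mitochondria averaged 10.80 ± 0.10 in fetuses, 11.52 ± 0.25 in newborns, 11.62 ± 0.26 in pigs of 28 dpn and 12.12 ± 0.17 in those of 188 dpn, with rises of 0.72 ± 0.076 in period I, where the stages did not overlap, and 0.50 ± 0.084 in period III.

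TXNRD1, the selenoprotein that reduces cytosolic thioredoxin, had values of 8.24 to 9.31 (median 8.80) at 94 dpc, 8.52 to 9.54 (median 9.08) at 1 dpn, 9.61 to 10.42 (median 9.98) at 28 dpn and 8.87 to 10.93 (median 9.68) at 188 dpn. The lowest pig of 28 dpn lay above the highest newborn. It rose by 0.27 ± 0.12 (1.2-fold, adjusted p = 0.0485) and 0.94 ± 0.11 (1.92-fold, adjusted p = 7.19e-09) and gave -0.33 ± 0.15 (adjusted p = 0.0738) in period III. The call of period I was lost without the filter on low values (adjusted p = 0.0853), in 1 fit over all stages (adjusted p = 0.078) and with the GAPDH covariate. A second TXNRD1 probe set rose by 0.61 ± 0.13 (1.52-fold, adjusted p = 0.000208) in period I and fell by 0.52 ± 0.14 (1.44-fold, adjusted p = 0.00349) in period III. Another was not called in period III, at 0.20 ± 0.11 (adjusted p = 0.141). TXNRD3, known from testis, was dim with means of 7.43 ± 0.67 in fetuses, 8.06 ± 0.41 in newborns, 7.72 ± 0.28 in pigs of 28 dpn and 7.81 ± 0.39 in those of 188 dpn, rose by 0.64 ± 0.19 and fell by 0.35 ± 0.13.

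TXNIP, which binds thioredoxin and blocks it and responds to glucose in many cells, was lowest in newborns, with means of 14.17 ± 0.31 in fetuses, 13.00 ± 0.40 in newborns, 13.55 ± 0.26 in pigs of 28 dpn and 13.48 ± 0.25 in those of 188 dpn. It fell by 1.17 ± 0.13 (2.24-fold, adjusted p = 2.47e-09) in period I and rose by 0.55 ± 0.13 (1.46-fold, adjusted p = 0.000296) in period II. Of these 5 genes, 4 rose and 1 fell in period I, 3 rose and 1 fell in period II, and 1 rose in period III.

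The 6 proteins with a thioredoxin-like fold had 3 rises in period I, 2 rises and 2 falls in period II and 3 falls in period III. TXNDC12, an oxidoreductase of the endoplasmic reticulum, averaged 10.99 ± 0.17 in fetuses, 11.87 ± 0.30 in newborns, 10.84 ± 0.26 in pigs of 28 dpn and 10.28 ± 0.50 in those of 188 dpn, with changes of 0.88 ± 0.093, -1.04 ± 0.11 and -0.56 ± 0.14, the second without overlap. TXNDC9, which binds the cytosolic chaperonin, fell by 0.85 ± 0.11 in period II and fell by 0.42 ± 0.13 in period III. TXNL4A rose by 0.82 ± 0.10 in period I and fell by 0.36 ± 0.093 in period III, and TXNDC17, a cystine reductase, rose by 0.35 ± 0.10 in period I alone. TXNDC17 in period II stood at -0.063 ± 0.10 (adjusted p = 0.582) and at 0.25 after median centring.

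TXNDC15 and TXNL1, the second of which sits on the proteasome, had their 1 called change in period II, at 0.54 ± 0.10 and 0.41 ± 0.09. Dimmer probe sets of both fell in that period, with changes of -1.09 ± 0.20 for TXNDC15 and -0.61 ± 0.13 for TXNL1. The means over the probe sets, which for TXNDC15 took in an untested probe set, were -0.33 for TXNDC15 and -0.061 for TXNL1. Neither direction is settled. In period I the dimmer TXNL1 probe sets also opposed each other, at -0.73 ± 0.12 and 0.36 ± 0.13.

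NQO1, a quinone reductase often read as a target of the transcription factor NRF2, rose in period I and was uneven among newborns. Values were 7.38 to 8.53 (median 7.87) at 94 dpc, 8.01 to 11.95 (median 9.05) at 1 dpn, 9.51 to 10.89 (median 9.98) at 28 dpn and 9.18 to 11.03 (median 10.08) at 188 dpn. The 2 highest newborns, at 11.73 and 11.95, exceeded every animal of the other stages, and the other 13 reached 10.47 at most. The change of period I was 1.51 ± 0.30 (2.86-fold, adjusted p = 4.35e-05), and its medians of 9.05 at 1 dpn and 7.87 at 94 dpc differed by less than its means of 9.39 ± 1.19 and 7.87 ± 0.28. Periods II and III gave 0.68 ± 0.31 (adjusted p = 0.0539) and 0.045 ± 0.15 (adjusted p = 0.829).

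HMOX1, the inducible haem oxygenase, which is also strong in macrophages, had values of 10.31 to 11.36 (median 10.87) at 94 dpc, 10.60 to 12.24 (median 11.53) at 1 dpn, 11.10 to 12.84 (median 12.20) at 28 dpn and 12.01 to 13.00 (median 12.44) at 188 dpn. It rose by 0.74 ± 0.14 (1.67-fold, adjusted p = 2.49e-05), 0.55 ± 0.16 (1.47-fold, adjusted p = 0.00367) and 0.37 ± 0.12 (1.29-fold, adjusted p = 0.0179). With the GAPDH covariate the change of period I was -0.070. The 7 measured macrophage markers averaged 10.53 in fetuses, 10.96 in newborns, 11.75 in pigs of 28 dpn and 10.97 in those of 188 dpn. Of these, 4 rose and 1 fell in period I, 4 rose and 1 fell in period II, and 6 fell in period III. Their part in the HMOX1 values was not tested.

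**Figure D4:**
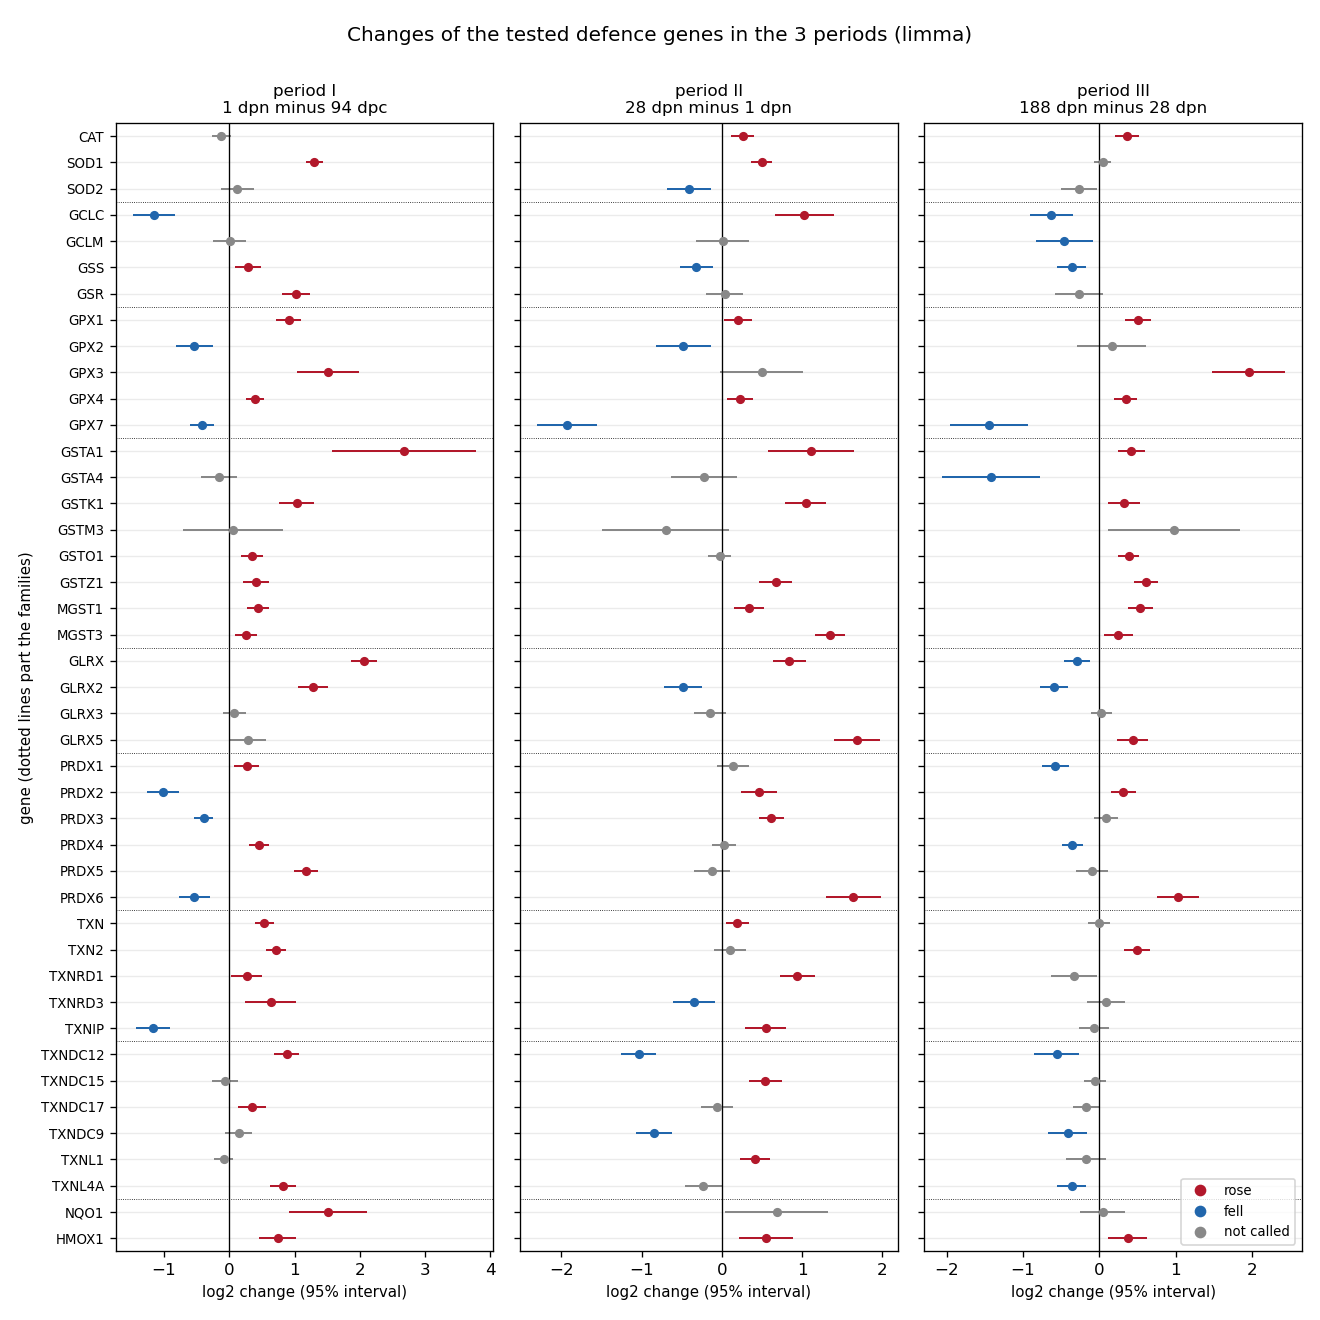
Log2 changes (x axis, later minus earlier stage) of the 43 tested defence genes in the 3 periods, with the 95% interval as a bar and colour by call. In period I 26 genes lie to the right as called rises and 7 to the left, in period II 21 and 8, and in period III 15 and 12.

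Where a gene had more than 1 tested probe set, the probe sets did not always share a direction. In period II, 15 of 17 dimmer probe sets changed less upward or more downward than the brightest of their gene, with a median difference of -0.69, and 4 of 13 such genes (GCLC, TXN, TXNDC15 and TXNL1) had probe sets called in opposite directions. In period I the median difference was -0.20 with 2 of 13 genes opposed (GCLC and TXNL1), and in period III it was 0.07 with 1 of 12 (GPX4). The actin ratio ranged from 2.85 to 4.41 at 28 dpn, against 1.14 to 2.23 at 1 dpn, and its part in these differences was not tested. With the actin ratio as a covariate 9 genes rose and 6 fell in period II, and 16 calls were lost, among them those of SOD1, GSTA1 and GLRX. With the GAPDH ratio 19 calls were lost in period I, among them those of GSTA1, NQO1, HMOX1 and TXN, and none was gained.

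Single calls also depended on the scaling. In period I quantile normalization ended those of MGST3, PRDX1 and TXNDC17. In period II it ended those of GPX4, GPX2, TXNRD3 and TXN, and median centring ended those of SOD2, GPX2, GLRX2, GSS and TXNRD3. The mean over the probe sets of a gene ended the calls of GPX7, GPX4, PRDX4 and GCLC in period I, of GPX4, GCLC and TXNL1 in period II, and of GPX4, GCLM, GLRX and GSTA1 in period III.

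**Figure D5:**
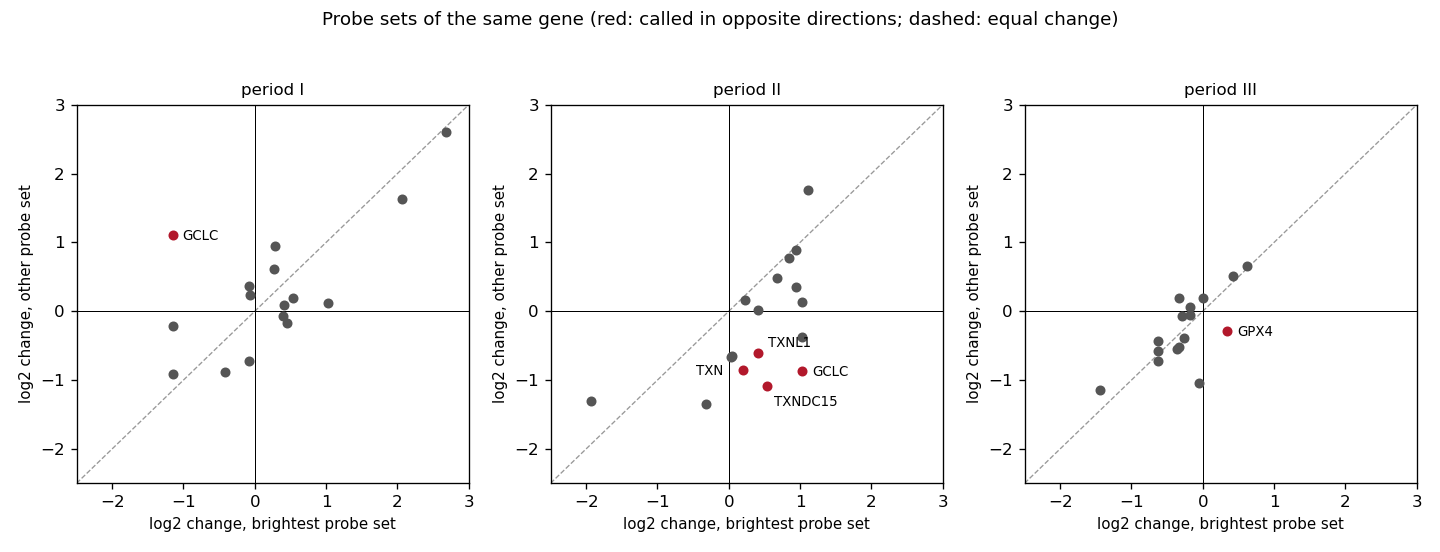
Log2 change of each dimmer tested probe set (y axis) against that of the brightest probe set of the same gene (x axis) in the 3 periods, with equal change as a dashed line. Points below the line are dimmer probe sets that changed less upward or more downward, 15 of 17 in period II, and red points are pairs called in opposite directions.

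The genes that feed these systems are read beside the shares of all tested genes that rose and fell, which were 29.8% and 35.6% in period I, 32.2% and 35.7% in period II and 17.5% and 28.3% in period III, and beside the medians over all genes of -0.058, -0.035 and -0.061. For NADPH supply, 7 of 10 listed genes had a probe set under their own symbol, and 4 of 6 tested rose and 1 fell in period I, 1 rose and 2 fell in period II, and 2 of 7 rose and 2 fell in period III. IDH2, the mitochondrial isocitrate dehydrogenase, rose by 1.11 and NNT, the transhydrogenase of the inner mitochondrial membrane, fell by 1.17 in period I, while malic enzyme ME1 rose by 1.17 in period III. The list had a median change of 0.58 in period I, -0.17 in period II and 0.020 in period III.

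For cysteine and glutathione turnover, 12 of 17 listed genes had a probe set and 11 were tested. Rises and falls numbered 7 and 3 in period I, 4 and 3 in period II, and 6 and 2 in period III, and the medians were 0.68, -0.10 and 0.38. CTH, which makes cysteine by transsulfuration, changed by 1.96, -0.88 and 0.59 in the 3 periods. CDO1, which commits cysteine to taurine and sulfate, changed by 1.72, 1.08 and -0.46. LAP3, a leucine aminopeptidase, rose by 1.30 and 0.72 in periods I and II.

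Of the genes tied to NRF2, which induces many defence enzymes, 4 of 15 listed were measured, and NRF2 and KEAP1 themselves were not analysed here. In periods I and II 3 rose and 1 fell, and in period III 4 rose, with medians of 0.32, 0.49 and 0.49 over these 4 genes. SQSTM1, an adaptor that binds KEAP1, rose by 0.42, 1.25 and 0.88. NQO2, a relative of NQO1, changed by 0.87, -0.46 and 0.65, and SESN1, a stress-induced sestrin, by -0.85, 0.35 and 0.33.

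Selenium supply bears on GPX1, GPX2, GPX3, GPX4, TXNRD1 and TXNRD3, which carry selenocysteine. Of 10 listed genes 4 were measured, and 2 rose and 1 fell in period I, 3 rose in period II and 4 rose in period III, with medians of 0.56, 0.37 and 0.69. The gene that fell in period I was SELENOP, the selenium carrier that liver secretes into plasma, which was named after its values were seen. SELENOP fell by 0.72 ± 0.081 (adjusted p = 3.48e-09) with no overlap between newborns and fetuses, and rose by 0.25 in period II and 0.30 in period III. SELENBP1, a selenium-binding protein, rose by 1.27, 0.49 and 1.12, and SCLY, which frees selenium from selenocysteine, by 1.09 in period I and 0.77 in period III. SEPHS2, which makes the selenium donor for selenocysteine, rose by 0.77 in period II and 0.62 in period III.

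Beside HMOX1, 8 of 9 genes of haem and iron handling were measured, of which 4 rose and 1 fell in period I, 2 rose and 2 fell in period II, and 6 rose in period III, with medians of 0.28, -0.011 and 0.30. ALAS1, which starts haem synthesis in liver, rose by 2.26 in period I and 0.92 in period II. FECH, which completes haem and is abundant in red cell precursors, fell by 2.08 in period I, when the erythroid markers fell. HPX, the plasma carrier of haem, rose by 1.39 in period I.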

How the data were processed

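The authors deposited 1 linear intensity per probe set and array, of the kind Affymetrix software computes (GCOS 1.1.1 in the submitters' processing notes). The mean after trimming 2% at each end was 500.13 to 500.22 on every array, which shows a common scaling. No log-scale GCRMA values were used, and mother, sex and weight, which the study's mixed model held, are not in the labels. Here 16 was added to each intensity and the log2 taken, and 24123 probe sets less 124 controls were kept. A probe set entered a comparison when, in either stage, 50% or more of the animals had it above their array median. Adjacent stages were compared with limma 3.58.1 in R 4.3.3, two-sided, with Benjamini-Hochberg adjustment over all probe sets tested in a period (12771, 12976 and 12568), and any difference among the 4 stages with the moderated F. Counts of genes use the brightest probe set. The script was tested on simulated data first. The number of arrays limits the precision.

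Symbols came from the platform annotation, which lists 1 gene for 10069 probe sets, several for 198 and none for 13732. All 72 member probe sets were found by gene ID in RefSeq Sscrofa11.1, with 0 symbols changed, and 1 probe set with 2 gene IDs for a thioredoxin symbol was left out. The members and lists were chosen with earlier results of these data known. Named with values per animal are the 4 genes of largest change in each period, a fixed set of 17 core enzymes and the 3 GST genes of highest mean signal, which decided only what is printed and is no comparison of their levels. From each list up to 3 genes of largest change are named. A probe set within 0.5 of the highest Tag control mean counts as near background. In all 11 alternatives were run. No sequences are printed.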

Additional observations from a re-analysis of the deposited data

How the results depend on the processing

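For each period 11 alternatives were run: quantile normalization, median centring, 1 and 64 as the added constant, no filter, 1 fit over all stages, leaving out from each stage the array least correlated with the others, the actin ratio as a covariate, a mean-variance trend, the mean over the probe sets of a gene, and the GAPDH ratio as a covariate, which was chosen after seeing the data. The mean over the probe sets of a gene took in all its probe sets, also those that did not pass the filter. A planned search of promoter windows for a motif was not run, since no sequences were at hand. No paired analysis was possible, since each animal was sampled at a single stage and the labels give no litter.

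Under the alternatives 1292 single-gene values kept their call or stayed uncalled, 81 kept direction and lost the call, and 29 gained a call. Another 13 changed sign and were called in the main fit, the alternative or both. Values uncalled in both fits count among the 1292 even where their sign changed. In period I the GAPDH covariate left 8 rises where 26 stood (19 calls lost), and the GAPDH ratios of 94 dpc and 1 dpn do not overlap. In period II it left 5 falls in place of 8. In period II the actin covariate left 9 rises where 21 stood (16 calls lost). The actin ratios of 1 and 28 dpn do not overlap, so this covariate also takes up the stages. Median centring gave 3 falls in place of 8 there, and a median change of 0.52 in place of 0.20. It moved the median over all probe sets of that period by 0.31, and quantile normalization moved it by 0.13. In period III quantile normalization left 9 rises in place of 15, with CAT, MGST3, HMOX1, GSTK1, GSTO1 and GSTA1 no longer called. Among values called in the main fit or the alternative, CAT (-0.18, actin covariate), GSTO1 (0.29) and TXNDC17 (0.25, both median centring) turned in period II. There TXN turned to -0.032 by quantile normalization and to -0.33 by the mean of probe sets. By that mean GSR (-0.55), PRDX4 (-0.32), TXNDC15 (-0.33) and TXNL1 (-0.061) turned too. The means of GSR and TXNDC15 took in untested probe sets. That of GSR averaged 6.41 at 1 dpn and 5.38 at 28 dpn, near and at background. In period I GPX2 (0.25), HMOX1 (-0.070) and PRDX1 (-0.042) turned with the GAPDH covariate. In period III SOD1 turned to -0.29 by quantile normalization. The cause was not tested. Values near background and differences within the spread of 14 to 16 animals could not be resolved.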

Other observations

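The third GSTA1 probe set, which did not pass the filter on low values and was not tested, read 58 of the 60 animals between 4.22 and 8.19 on the log2 scale and 2 animals of 28 dpn at 14.25 and 14.65. On the brightest GSTA1 probe set the same 2 animals stood at 15.25 and 15.54, within the 28 dpn range of 14.46 to 15.65. The gap of 6.06 between these 2 and the next animal was the widest gap between neighbouring values on any of the 72 probe sets, ahead of 2.15 on a GCLC probe set. The probe set was singled out after its values were seen, and nothing in the labels sets the 2 animals apart.

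The order of the stages by spread between animals also differed among the members. The median SD of the 43 tested genes was 0.22 among fetuses, 0.31 among newborns, 0.26 among pigs of 28 dpn and 0.25 among those of 188 dpn, beside 0.25, 0.34, 0.28 and 0.31 over all 5491 genes tested. Light and heavy sibs were sampled at 94 dpc and 1 dpn only, so differences in SD between stages cannot be told apart from the sampling. GSTA1 had the largest SD of the members at 94 dpc, NQO1 at 1 dpn, and GSTM3 at both 28 and 188 dpn. GPX3 was also uneven at every stage, with SDs of 0.61, 0.73, 0.72 and 0.64 in the order of the stages, which 4.17% to 8.12% of genes exceeded.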
